A study of Mus musculus with 9 samples.

Results

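The genes described here encode the machinery of oxidative phosphorylation, and they were taken by symbol: protein-coding genes whose names begin with Ndufa, Ndufb, Ndufc, Ndufs, Ndufv, Uqcr, Cox followed by a digit, Atp5 or mt-, together with Sdha, Sdhb, Sdhc and Sdhd. The rule found 115 of the 48709 genes counted in the 9 libraries, of which 102 are encoded in the nucleus and 13 in the mitochondrial genome. RNA was sequenced from NeuN-sorted neuronal nuclei of frozen hippocampi of 6-month-old male mice on the C57BL/6J background. The 3 groups, with 3 mice each, were wild-type mice given vehicle (WT vehicle), homozygous Tg4-42 mice given vehicle (Tg4-42 vehicle), and homozygous Tg4-42 mice that drank 300 mg/l caffeine for 4 months from an age of 2 months (Tg4-42 caffeine). Tg4-42 mice express human amyloid-β 4-42, fused to the signal peptide of thyrotropin-releasing hormone, in neurons under the Thy1 promoter, and both Tg4-42 groups carry it. The vehicle treatment is given by the study's methods and not by the sample labels. Replicate numbers follow the order of deposition, and replicate 3 of each group was sequenced in lane 7 and the others in lane 6. Each library carries a number of its own in the labels and is called a mouse here. The study's methods give tissue from 3 per group, which is the number of libraries, and the labels give 6, so p-values measure the spread between these libraries.

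Oxidative phosphorylation passes electrons from NADH and succinate through complexes I, II and III to oxygen at complex IV, and the proton gradient that complexes I, III and IV build drives ATP synthesis at complex V. Complex II is encoded wholly in the nucleus, whereas the other complexes join nuclear-encoded subunits to core subunits made inside the mitochondrion from its own genome. Neurons depend on this pathway for the ATP that ion pumping and synaptic transmission consume. Mitochondrial transcripts stay inside the organelle, so they are not a native part of nuclear RNA, and the nuclear genome holds copies of stretches of mitochondrial DNA whose sequence can be identical to the original.

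The libraries held between 9342945 and 16376922 counts. Trh and Thy1, the 2 genes whose sequences are part of the transgene construct, were counted at 1.81 to 4.39 and 82.1 to 88.8 CPM in the WT mice (CPM, the count scaled to a library size adjusted by TMM). In the 6 Tg4-42 mice they lay between 48.0 and 64.7 CPM and between 461 and 670.1 CPM. The samples carry the neuronal markers the labels call for, with Rbfox3, the gene of NeuN, at 89.3 to 148 CPM. Markers of other cells were also counted: 9 of the 10 oligodendrocyte markers and all 10 astrocyte and 10 microglia markers of the lists used here passed the count filter, with summed levels of 260 to 519, 379 to 532 and 53.7 to 95.2 CPM. Of 8 endothelial markers 2 passed. In bulk samples of this kind, fewer cells of a type and less RNA per cell cannot be told apart.

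The mitochondrial genome gave few counts, and they came from only 7 of its 13 protein-coding genes. mt-Nd1, mt-Nd2, mt-Nd4, mt-Nd5 and mt-Nd6 (complex I), mt-Cytb (complex III) and mt-Co1 (complex IV) had counts in every library. mt-Co2 and mt-Co3 (complex IV), mt-Atp6 and mt-Atp8 (complex V), and mt-Nd3 and mt-Nd4l (complex I) were listed at 0 in all 9 libraries. The 5 of these 6 other than mt-Atp8 have a copy in a run of unprocessed pseudogenes on chromosome 1 (GRCm38, chr1:24611535-24616197, minus strand), and between 97.99% and 100% of their 50-base windows, 50 bases being the read length, also occur in another annotated transcript. The copies Gm28661 of mt-Co2, Gm10925 of mt-Atp6, Gm28437 of mt-Co3 and Gm10222 of mt-Nd4l had 0 differences from the gene over 681, 678, 783 and 294 aligned bases, and Gm28438 differed from mt-Nd3 at 1 of 345 bases. All 5 copies were themselves listed at 0 in every library. The same run also holds partial copies of mt-Nd4 and mt-Co1, which were counted. Gm28439 had 0 differences from mt-Nd4 over 876 bases, 63.6% of the gene. Gm29216 differed from mt-Co1 at 6 of 492 bases, 31.8% of the gene. A copy on chromosome 1 therefore does not by itself mark the genes at 0. The first 60 bases of mt-Co2 (chrM:7013-7072) and of its copy (chr1:24615506-24615565) are given here to show 2 sequences that a 50-base read from this stretch cannot separate:
mt-Co2: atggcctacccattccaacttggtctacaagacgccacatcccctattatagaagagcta
Gm28661: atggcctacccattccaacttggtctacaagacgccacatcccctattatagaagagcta
The first 60 bases of mt-Nd3 (chrM:9459-9518) and of its copy (chr1:24613060-24613119) hold the single substitution, T3C, counted from the first base of the gene and written in capitals:
mt-Nd3: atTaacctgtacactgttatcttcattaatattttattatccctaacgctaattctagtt
Gm28438: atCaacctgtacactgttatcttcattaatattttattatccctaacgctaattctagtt
mt-Co1 also has a full-length copy on chromosome 2, Gm13340, that differs at 37 of 1545 bases. Its bases 24 to 83 (chrM:5351-5410, beside chr2:22589565-22589624) show the first of these, C54A and A60G, in capitals:
mt-Co1: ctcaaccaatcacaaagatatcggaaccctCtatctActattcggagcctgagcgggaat
Gm13340: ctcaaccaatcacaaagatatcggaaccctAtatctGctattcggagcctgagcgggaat

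Among the counted genes, the shared windows made up 0% in mt-Nd1, mt-Nd6 and mt-Cytb, 8.19% in mt-Nd2, 7.61% in mt-Nd5, 51.1% in mt-Co1 and 62.2% in mt-Nd4. mt-Atp8 departs from this pattern, with 0% of its windows in another annotated transcript and 0 counts in every library. It is 204 bases long, and its last 43 bases overlap mt-Atp6. In the mitochondrial genome 230 bases separate mt-Co2 from mt-Atp6, and on chromosome 1 a stretch of 233 bases with no annotated transcript separates their copies. The chromosome 1 sequence of that stretch was not used here. How reads with more than 1 alignment were handled is not given in the sources used here, and its part in the 0 counts was not tested.

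**Figure D1:**
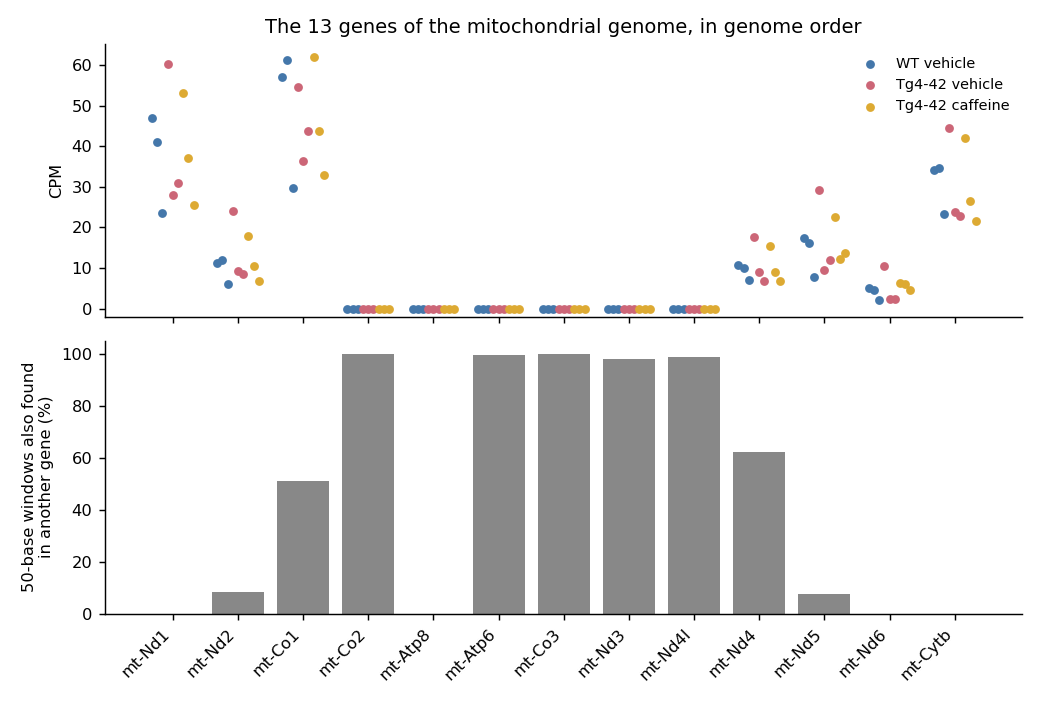
CPM of the 13 mitochondrial genes in each of the 9 mice (upper panel; colours give the group) and the percentage of each gene's 50-base windows that also occur in a transcript of another gene (lower panel), in genome order. The 6 genes from mt-Co2 to mt-Nd4l sit at 0 in every mouse, and 5 of them have bars of 97.99% or more, mt-Atp8 having none.

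The 7 counted genes did not separate the groups. Their share of all counts was 0.0183%, 0.0174% and 0.00974% in the 3 WT mice, 0.0238%, 0.0117% and 0.0125% in Tg4-42 vehicle, and 0.0219%, 0.0151% and 0.0116% in Tg4-42 caffeine. The 3 ranges overlapped almost wholly, and the mice within a group differed by as much as the groups. mt-Nd1, a membrane subunit of complex I and the best covered per length, lay at 46.8, 41.0 and 23.5 CPM in WT, 60.3, 28.0 and 30.8 CPM in Tg4-42 vehicle, and 53.1, 37.1 and 25.5 CPM in Tg4-42 caffeine. mt-Co1, the catalytic core of complex IV, lay at 57.0, 61.2 and 29.6 CPM, then 54.7, 36.3 and 43.8 CPM, then 62.0, 43.7 and 32.8 CPM in the same order. mt-Cytb, the core of complex III, ranged from 21.5 to 44.4 CPM, mt-Nd5 from 7.76 to 29.3 CPM, mt-Nd2 from 6.08 to 24.0 CPM, mt-Nd4 from 6.77 to 17.5 CPM, and mt-Nd6 from 2.07 to 10.4 CPM, and all overlapped between groups. The highest mouse was Tg4-42 vehicle replicate 1 for 6 of the 7 genes, and WT replicate 3 was the lowest for 5. The 3 mice sequenced in lane 7, replicate 3 of each group, had shares of 0.00974%, 0.0125% and 0.0116%, and the 6 mice in lane 6 had 0.0117% to 0.0238%.

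In the fit across all genes (edgeR's quasi-likelihood test, Benjamini-Hochberg adjustment over 17361 genes), 0 of the 7 had an adjusted p or an unadjusted p under 0.05 in any of the 3 comparisons. Of all genes tested, 2.74%, 17.0% and 15.4% had an unadjusted p under 0.05 and 0.0979%, 0.881% and 0.415% an adjusted p under 0.05 in Tg4-42 vehicle against WT, caffeine against vehicle and caffeine against WT, so a count of 0 among 7 genes is near that background. Their median log2 fold change was 0.24 between Tg4-42 vehicle and WT, -0.03 between Tg4-42 caffeine and vehicle, and 0.16 between Tg4-42 caffeine and WT, beside an SD between mice of 0.544. Without Tg4-42 vehicle replicate 1, the first of these medians was -0.33. The intervals were wide: the log2 difference of mt-Nd1 between Tg4-42 vehicle and WT was 0.09 with a 95% interval from -0.66 to 0.83, and that of mt-Nd2 was 0.50 with an interval from -0.42 to 1.41. Differences of those sizes were not detectable with 3 mice in a group.

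The nuclear-encoded genes carried almost all of the pathway's counts, between 0.813% and 1.09% of each library. Of the 102 genes, 96 passed the filter on low counts, and the 6 that did not were tissue isoforms. All levels between genes are given per kilobase of exon (CPM per kb), as means of the 9 mice. The length joins all annotated exons of a gene, for example 3250 bases for Sdhc, 1231 for Sdhd and 6443 for Atp5l. Differences between genes in these values therefore depend in part on the annotation. The 75 subunits had a median of 51.7 CPM per kb and the 19 assembly factors and related genes a median of 15.7, beside 6.26 over the 13758 protein-coding genes tested. Subunit medians were 51.7 in complex I, 101 in complex II, 54.7 in complex III, 62.7 in complex IV and 43.2 in complex V. Atp5b, the catalytic β subunit of ATP synthase, was the highest at 209 CPM per kb, and Atp5a1, its α partner, had 165. In complex IV the highest were Cox6a1 with 180.3 and Cox6b1 with 138. In complex I Ndufc2 had 142 and Ndufb9 had 122, and in complex III Uqcr10 had 115 and Uqcr11 had 80.97. Complex II, which also runs a step of the citric acid cycle, had Sdhd at 111 and Sdha, the flavoprotein, at 110.1, then Sdhb, the iron-sulphur subunit, at 92.2 and Sdhc at 15.02. mt-Nd1, the highest counted mitochondrial gene, had 40.2 CPM per kb. The nuclear-encoded genes tested were short, with a median gene span of 7565 bases beside 26301 bases over all protein-coding genes tested, and their GC content was close to the rest, with medians of 49.9% and 49.7%.

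**Figure D2:**
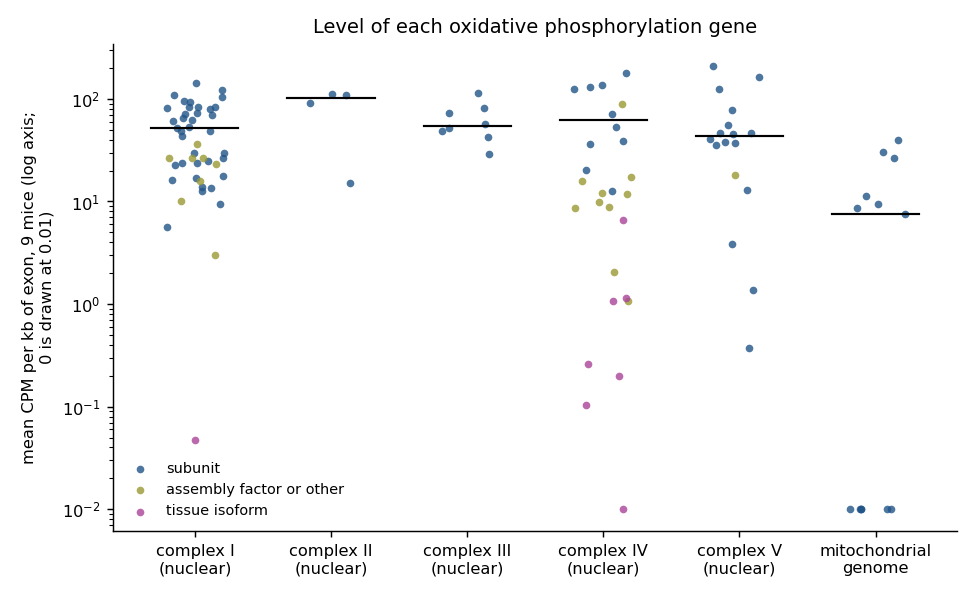
Mean level of each of the 115 genes over 9 mice, in CPM per kb of exon on a log axis with 0 drawn at 0.01, by complex; points are coloured by role and bars give the median of the subunits. Nuclear subunits centre between 43.2 and 101 CPM per kb, assembly factors lie lower, and tissue isoforms and 6 mitochondrial genes lie at the bottom.

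A few subunits stood far below their complex. Atp5l, a membrane subunit of ATP synthase, had 0.374 CPM per kb (23 to 39 counts per library), Atp5g2, 1 of 3 genes for the c-ring protein, had 1.37, and Atp5g1 had 3.81. Ndufb4 had 5.70. Sequence shared with other genes was uneven: 48 of the 102 nuclear-encoded genes shared no 50-base window with any other gene, and 4 shared over 50%, namely Cox20 (90.5%), Cox16 (88.7%), Ndufaf2 (80.9%) and Cox11 (50.5%). These are assembly factors, and 3 of them, Cox20, Cox16 and Ndufaf2, had 1.08, 2.05 and 3.02 CPM per kb, the lowest of the 19 assembly factors and related genes. Whether counts were lost to the genes that share sequence was not tested, for these or for the low subunits above.

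The tissue isoforms were far below the general forms of the same subunit. Cox6a2, the heart and skeletal muscle form, had 6.58 CPM per kb beside 180.3 for Cox6a1. Cox7a1, also a muscle form, had 1.15 beside 71.6 for Cox7a2. Cox4i2, the form of lung, had 0 to 3 counts per library beside 1886 to 4258 for Cox4i1, Cox8b had 0 to 3 beside 609 to 1471 for Cox8a, and Ndufa4l2 had 0 to 2 beside 1306 to 2975 for Ndufa4. Cox8c was listed at 0 in every library. Cox6a2 and Cox7a1 passed the filter, and neither had an adjusted p under 0.05 in any comparison. Cox6a2 lay at 5.73, 3.98 and 4.53 CPM in WT, 6.06, 3.53 and 6.18 CPM in Tg4-42 vehicle and 3.31, 4.36 and 2.61 CPM in Tg4-42 caffeine. The caffeine and vehicle mice overlapped, and the log2 difference was -0.60 ± 0.29 (SE, adjusted p = 0.307).

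The promoters of these genes are known to be read by NRF1, GABPA, YY1 and ERRα, which drive many respiratory genes. RefSeq windows of GRCm38.p6, from 250 bases before to 50 after the start of transcription, were available for 83 of the 102 nuclear-encoded genes, in 89 windows. The NRF1 core GCGCATGCG occurred on either strand in 11.2% of these windows, in 1.75% of all 32851 windows and in 3.34% of the 13966 windows of protein-coding genes tested. The YY1 motif AAGATGGCG occurred in 10.1%, 1.40% and 2.68%, and the ETS motif CCGGAAGT, which GABPA binds, in 10.1%, 3.89% and 7.30%. TCAAGGTCA, bound by ERRα, occurred in 2.25%, 0.423% and 0.265%, which is 2 genes, Atp5g3 and Sdhd, and CCAAT occurred in 42.7%, 37.4% and 37.2%. The median GC content was 59.0% in the windows of these genes and 60.7% in those of the protein-coding genes tested. In all, 28 of the 83 genes held at least 1 of the NRF1, ETS, YY1 and ERRα motifs. Windows of cytosolic ribosomal protein genes held these 4 motifs in 4.49%, 14.6%, 6.74% and 0%, in that order. A match of letters is a description and not a bound site. The windows of 3 genes that are named in the comparisons and hold a motif are printed 5′ to 3′ with the motif in capitals. No RefSeq window was available for Cox6c, the gene called between caffeine and vehicle below. Cox6a1 (chr5:115348909-115349208, minus strand) and Atp5k (chr5:108434350-108434649, minus strand) each hold the NRF1 core on both strands in 1 overlapping run, and Cox8a (chr19:7217567-7217866, minus strand) holds the ETS motif at 2 places:
Cox6a1: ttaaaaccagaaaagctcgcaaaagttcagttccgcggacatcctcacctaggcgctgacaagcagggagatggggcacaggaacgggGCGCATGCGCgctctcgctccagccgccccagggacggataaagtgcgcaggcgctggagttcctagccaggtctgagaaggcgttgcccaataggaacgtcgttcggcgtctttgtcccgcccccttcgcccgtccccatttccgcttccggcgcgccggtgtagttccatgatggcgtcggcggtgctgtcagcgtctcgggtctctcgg
Cox8a: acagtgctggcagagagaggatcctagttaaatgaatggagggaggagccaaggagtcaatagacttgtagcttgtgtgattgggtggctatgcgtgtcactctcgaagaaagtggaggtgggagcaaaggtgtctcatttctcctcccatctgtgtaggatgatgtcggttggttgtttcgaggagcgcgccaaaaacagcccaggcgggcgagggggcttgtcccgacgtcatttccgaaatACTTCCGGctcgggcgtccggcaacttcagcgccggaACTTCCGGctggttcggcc
Atp5k: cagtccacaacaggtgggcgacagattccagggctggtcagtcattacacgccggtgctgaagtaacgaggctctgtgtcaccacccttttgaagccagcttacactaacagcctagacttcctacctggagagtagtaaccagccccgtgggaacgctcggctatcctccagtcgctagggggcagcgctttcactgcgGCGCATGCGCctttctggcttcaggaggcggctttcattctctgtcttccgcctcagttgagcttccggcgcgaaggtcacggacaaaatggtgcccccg

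Comparing Tg4-42 vehicle with WT vehicle asks whether the transgene alone altered the pathway at this age. No nuclear-encoded gene passed the test: 0 of 96 had an adjusted p under 0.05 (0.0979% of all genes tested), and 5 had an unadjusted p under 0.05, all of them lower in Tg4-42 (2.74% of all genes tested). The point estimates leaned one way, with 87 genes lower and 9 higher in Tg4-42, where 49.5% of all genes tested were lower. The median log2 difference was -0.13, beside 0.00 over all genes. Lists of other genes leaned the same way, with 0 called. Lower in Tg4-42 were 70 of 91 cytosolic ribosomal protein genes (median -0.185) and 51 of 78 mitochondrial ribosomal protein genes (median -0.045). So were 18 of 23 mitochondrial import genes (median -0.099), 12 of 16 glycolytic genes (median -0.069) and 11 of 11 tested subunits outside the rule (median -0.128). All 45 tested genes of complex I, all 4 of complex II and all 8 of complex III had negative estimates, with medians of -0.17, -0.13 and -0.17. In complex IV 14 of 22 were lower (median -0.11) and in complex V 16 of 17 (median -0.13).

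The lean moved with 1 mouse. WT replicate 2 was the highest of the 9 mice for 67 of the 96 genes, and its median deviation from the genes' own means was 0.30 on the log2 scale. The other 8 mice had medians between -0.18 (Tg4-42 vehicle replicate 2) and 0.08 (Tg4-42 caffeine replicate 1), and none was the highest mouse for more than 9 genes. The nuclear-encoded share of counts was 0.890%, 1.09% and 0.847% in the WT mice, 0.829%, 0.813% and 0.949% in Tg4-42 vehicle, and 0.972%, 0.915% and 0.876% in Tg4-42 caffeine. Without WT replicate 2 the median difference between Tg4-42 vehicle and WT was -0.01, with 44 genes higher and 51 lower, and complex I had 19 genes higher and 26 lower. The mouse was also the highest for 38 of 78 mitochondrial ribosomal protein genes, 38 of 91 cytosolic ribosomal protein genes and 8 of 16 glycolytic genes. For the mitochondrial genome it was the highest for 0 of 7 genes. Between Tg4-42 vehicle and WT, 9 of 10 interneuron markers (median log2 difference 0.25) and 9 of 10 microglia markers (median 0.22) were higher in Tg4-42, with 0 called, and their part in the lean was not tested.

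**Figure D3:**
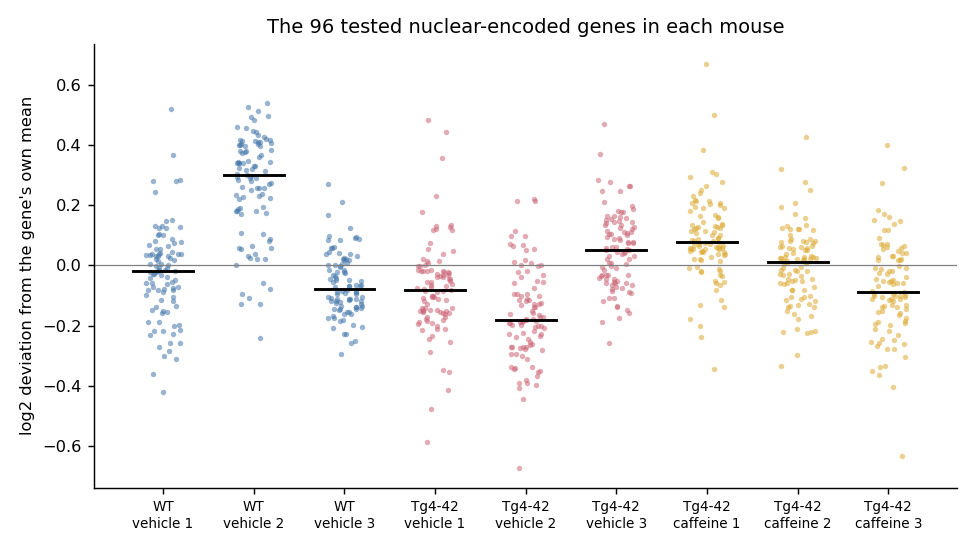
Deviation of each of the 96 tested nuclear-encoded genes from its own mean over 9 mice, in log2 units, by mouse; points are genes, bars are medians and colours give the group. WT vehicle replicate 2 stands apart with a median of 0.30, and the medians of the other mice lie between -0.18 and 0.08.

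The 5 genes with the smallest unadjusted p in this comparison were all small accessory subunits. Atp5j, coupling factor 6 of ATP synthase, lay at 126, 149 and 118 CPM in WT and at 102, 92.6 and 116 CPM in Tg4-42 vehicle, so that the groups did not overlap. The log2 difference was -0.34 ± 0.13 (SE), and the adjusted p was 1.0. Ndufa5, an accessory subunit of complex I, lay at 69.3, 83.8 and 63.6 CPM and at 59.3, 50.1 and 63.5 CPM, with the nearest mice of the groups almost equal. Atp5k, the e subunit of ATP synthase, lay at 25.6, 31.4 and 26.4 CPM and at 22.5, 18.9 and 24.3 CPM. Ndufa1 and Ndufa12, both of complex I, had log2 differences of -0.31 ± 0.14 and -0.33 ± 0.15 (SE). Groups did not overlap for 9 nuclear-encoded genes, all lower in Tg4-42 (Ndufa1, Ndufa3, Ndufa5, Ndufa12, Uqcrb, Cox6c, Atp5j, Atp5j2 and Atp5k), and for 0 that were higher, where 3.16% and 3.57% of all genes did not overlap in these directions. With 3 mice a group an exact permutation test of 1 gene cannot give a p under 0.1. Without WT replicate 2, 0 of 95 nuclear-encoded genes had an unadjusted p under 0.05. The share of all genes at that level in that smaller fit is not given here. The 0 is therefore not read as a result about these genes. At an adjusted p under 0.05 stood 0 of the 95 and 14 of all 17683 genes in that fit.

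Comparing Tg4-42 caffeine with Tg4-42 vehicle asks what the 4 months of caffeine changed. Cox6c, a small nuclear-encoded subunit of complex IV, was the 1 gene of the 96 that passed the test, and it rose (0.881% of all genes tested were called and 0.213% were called as higher). It lies at chr15:35925886-35938246 on the minus strand (GRCm38). Cox6c lay at 115.5, 106.5 and 107 CPM in the vehicle mice and at 146, 160.1 and 169 CPM in the caffeine mice, and at 118, 129.9 and 116 CPM in WT. The 3 caffeine mice were above all 6 others. The log2 fold change was 0.53 ± 0.11 (SE; 95% interval 0.31 to 0.75), which is 44.4% higher, with an adjusted p of 0.0437 by edgeR's quasi-likelihood test. The log2 fold change was 0.48 to 0.58 when any 1 of the 6 vehicle or caffeine mice was left out, but the call held only without Tg4-42 caffeine replicate 1. The adjusted p was 0.0822, 0.0758 and 0.242 without Tg4-42 vehicle replicates 1, 2 and 3, 0.0317, 0.0929 and 0.287 without Tg4-42 caffeine replicates 1, 2 and 3, and 0.0668 with the sequencing lane in the model. Cox6c shares 2.31% of its 50-base windows with other genes, counted on its longest transcript of 3038 bases. With the processed pseudogene Cox6c2 it shares 60 windows, and the share in a shorter transcript was not counted.

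The 10 complex IV subunits, Cox6c included, all had positive estimates, with a median log2 fold change of 0.19. The other 9 did not pass the test, with 3 at an unadjusted p under 0.05, where 17.0% of all genes tested did. Cox6a1, which binds near the dimer surface of the complex, lay at 114, 90.1 and 118 CPM in vehicle and 196, 122 and 138.5 CPM in caffeine. Its groups did not overlap, and the log2 fold change was 0.50 ± 0.22 (SE, adjusted p = 0.258). That fold change was 0.32 with a correction for GC content. With 1 of the 6 vehicle or caffeine mice left out it was 0.28 to 0.64, lowest without Tg4-42 caffeine replicate 1. Cox8a, the smallest subunit, lay at 65.9, 66.1 and 73.5 CPM and at 108, 76.6 and 84.7 CPM, again without overlap, at 0.39 ± 0.15 (SE, adjusted p = 0.213). Cox5b, a subunit on the matrix side, lay at 54.1, 54.6 and 59.4 CPM and at 71.5, 66.4 and 70.4 CPM, at 0.31 ± 0.13 (SE, adjusted p = 0.242). Cox4i1, the subunit with the most counts, differed by 0.04 with a 95% interval from -0.28 to 0.36. In WT mice Cox6a1, Cox8a and Cox5b reached 162, 89.6 and 72.96 CPM in replicate 2, inside or above the range of the caffeine mice. Leaving out each of the 6 vehicle and caffeine mice in turn left 7 to 10 of the 10 subunits with positive estimates and medians of 0.15 to 0.30. With a correction for transcript length 7 of the 10 were positive, with a median of 0.15 and 1 unadjusted p under 0.05.

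**Figure D4:**
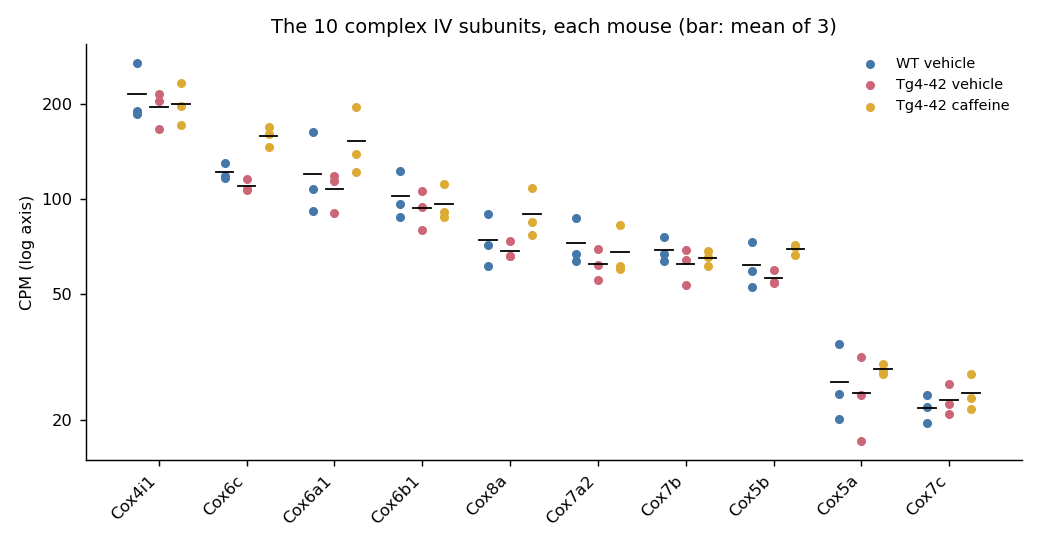
Level of the 10 nuclear-encoded complex IV subunits in each mouse, in CPM on a log axis; colours give the group and bars the mean of 3 mice. For Cox6c the 3 caffeine mice, at 146 to 169 CPM, lie above all other mice, whereas for Cox4i1 and Cox6b1 the groups overlap.

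Across the pathway the lean was weaker and uneven. Of the 96 nuclear-encoded genes 69 were higher with caffeine and 27 lower, where 48.5% of all genes were higher. The median log2 fold change was 0.08, beside -0.01 over all genes. The size of this lean moved with single mice. Without Tg4-42 caffeine replicate 1 the median was 0.03, with 58 genes higher and 39 lower. Without Tg4-42 vehicle replicate 2 the median was 0.04, with 59 higher and 37 lower. Without Tg4-42 vehicle replicate 3 the median was 0.15, with 79 higher and 18 lower. Tg4-42 vehicle replicate 2 was the lowest mouse for 42 of the 96 genes. Complex I had 37 of 45 higher (median 0.09) and complex III 7 of 8 (median 0.11). In complex II 1 of 4 was higher (median -0.12), and in complex V 8 of 17 were (median -0.02). With a correction for transcript length the counts over all 96 were 61 higher and 35 lower, with a median of 0.04. Besides the 4 of complex IV, Ndufa5 and Ndufa6 were higher at an unadjusted p under 0.05, and Cox17 and Ndufaf7 were lower. That made 8 of the 96 nuclear-encoded genes at that level, 6 higher and 2 lower, a smaller share than the 17.0% of all genes tested. Ndufa5 lay at 76.8, 68.9 and 65.8 CPM with caffeine, close to the 63.6 to 83.8 CPM of WT, at 0.29 ± 0.14 (SE) against vehicle. Cox17, the copper chaperone of complex IV, lay at 59.2, 46.1 and 65.3 CPM with vehicle and 52.1, 39.8 and 42.4 CPM with caffeine, so the groups overlapped, at -0.34 ± 0.15 (SE). Ndufaf7, a methyltransferase that acts in complex I assembly, lay at 92.8, 92.5 and 102.9 CPM with vehicle and 88.5, 78.6 and 75.7 CPM with caffeine, without overlap, at -0.25 ± 0.11 (SE). Groups did not overlap for 12 genes that were higher (10.4% of all genes) and 2 that were lower (12.6% of all genes). The 12 were Ndufa1, Ndufa3, Ndufa5, Ndufa6, Ndufa13, Ndufb3, Ndufv3, Cox5b, Cox6a1, Cox6c, Cox8a and Cox19, and the 2 were Ndufaf7 and Atp5g2.

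No gene of complex II had an unadjusted p under 0.05. Sdha lay at 417, 412 and 539.9 CPM with vehicle and 455, 385 and 376 CPM with caffeine, a log2 difference of -0.17 with a 95% interval from -0.46 to 0.11. Sdhb, Sdhc and Sdhd differed by -0.13, -0.10 and 0.00, and their groups overlapped. The catalytic subunits of complex V likewise overlapped, with Atp5b at 687, 916 and 988 CPM with vehicle and 944, 781 and 815 CPM with caffeine (log2 difference -0.03, interval -0.36 to 0.30) and Atp5a1 at -0.16 (interval -0.49 to 0.17).

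**Figure D5:**
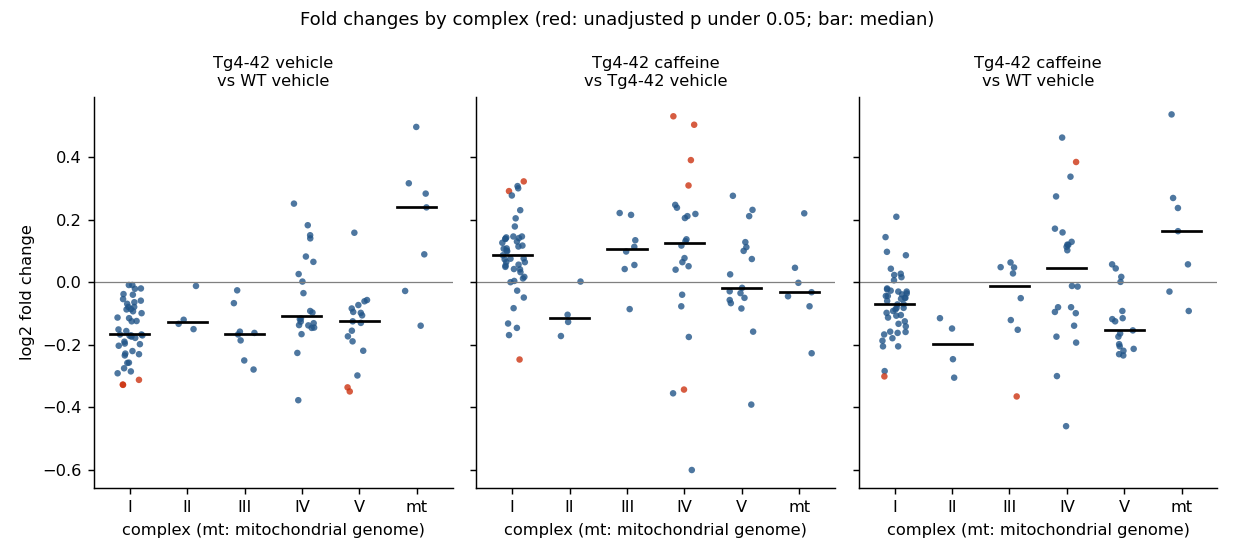
Log2 fold change of every tested gene by complex in the 3 comparisons; points are genes, red marks an unadjusted p under 0.05 and bars are medians. The medians of complexes I to V lie below 0 in Tg4-42 vehicle against WT, whereas against vehicle the caffeine group has complexes I, III and IV above 0 and complexes II and V below it.

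Comparing Tg4-42 caffeine with WT vehicle, which share no treatment or genotype, gave 0 called genes of the 96 (0.415% of all genes tested). Cox6c was the nearest, with an adjusted p of 0.124 and a log2 difference of 0.38 ± 0.11 (SE), and it was also the 1 gene that was higher without overlap (9.14% of all genes). At an unadjusted p under 0.05 stood Cox6c as higher and Ndufaf7 and Uqcrc2 as lower, where 15.4% of all genes did. Uqcrc2, a core protein of complex III, lay at 155, 184 and 121.5 CPM in WT and 126, 122 and 109.7 CPM in caffeine, and the groups overlapped. Ndufaf7, Cox10 and Atp5s were lower without overlap (9.67% of all genes). Of the 96 genes 28 were higher and 68 lower, with a median of -0.08, and without WT replicate 2 the count was 55 higher and 40 lower of 95, with a median of 0.04. The comparison shares its caffeine mice with the second comparison and its WT mice with the first. The first and second comparisons share the Tg4-42 vehicle mice, on opposite sides of the difference. Their opposite leans, and the genes without overlap in both, are therefore not separate observations.

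Genes that work beside these complexes were read from lists of pathway members. Cyc1, the cytochrome c1 of complex III, and Cycs, the electron carrier cytochrome c, lie outside the naming rule. Cyc1 had a mean of 181 ± 39.8 CPM in WT, 155 ± 25.8 CPM in Tg4-42 vehicle and 187 ± 17.5 CPM in caffeine (SD, n = 3). Cycs had 14.7 ± 1.18, 13.4 ± 2.88 and 11.4 ± 1.70 CPM (SD, n = 3), so the spreads of neighbouring groups met for both. Of 11 tested subunits outside the rule 5 were higher and 6 lower with caffeine, and of 31 tested assembly factors outside the rule 16 were higher and 15 lower, with 0 called. Of the glycolytic genes, 14 of 16 were lower with caffeine than with vehicle, 5 of them at an unadjusted p under 0.05 (17.0% of all genes tested in either direction), with 0 called and a median of -0.21. Genes of the citric acid cycle and pyruvate dehydrogenase had 13 of 18 lower (median -0.10), mitochondrial import genes 18 of 23 higher (median 0.14), and mitochondrial ribosomal protein genes 43 of 78 higher (median 0.04), all with 0 called. Cytosolic ribosomal protein genes had 75 of 91 higher (median 0.16), with 0 called.

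The regulators of mitochondrial biogenesis gave 0 called genes of 19 in each comparison. Ppargc1a, the PGC-1α coactivator, had 44.1 ± 3.79 CPM in WT, 49.1 ± 1.69 in Tg4-42 vehicle and 40.8 ± 2.91 in caffeine (SD, n = 3), and the log2 difference between caffeine and vehicle was -0.26 ± 0.12 (SE, adjusted p = 0.286). Nrf1 had 33.2 ± 2.65, 39.7 ± 1.42 and 33.2 ± 3.62 CPM, at -0.26 ± 0.13 (SE, adjusted p = 0.336). Gabpa and Esrra differed between caffeine and vehicle by -0.08 ± 0.14 and 0.12 ± 0.17 (SE). Tfam, which packages mitochondrial DNA, and Polrmt, its RNA polymerase, differed by 0.18 ± 0.15 and 0.27 ± 0.14 (SE), with adjusted p-values of 0.571 and 0.354.

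Markers of cell types moved along with the caffeine comparison. All 12 dentate granule cell markers were higher with caffeine than with vehicle, 3 of them called (Plk5, Bcl11b and Stxbp6). The summed level of the 12 was 1362 to 1693 CPM with caffeine, 699 to 1209 with vehicle and 885 to 1180 in WT. The study had already named Dsp, Prox1 and Bcl11b of this list as raised by caffeine in these libraries, so their direction was known beforehand. All 10 interneuron markers were lower, with Slc32a1 called, at 1006 to 1274 CPM summed with caffeine, 1325 to 1907 with vehicle and 1292 to 1492 in WT. Of the glial lists, 8 of 9 oligodendrocyte, 8 of 10 astrocyte and 10 of 10 microglia markers were lower with caffeine, with 0 called. Summed microglia markers were 53.7 to 63.3 CPM with caffeine and 66.5 to 95.2 CPM with vehicle, and summed oligodendrocyte markers were 260 to 370.1 and 369 to 519 CPM. Summed markers of CA1, CA3 and subiculum were 1172 to 1266 CPM with caffeine and 1207 to 1495 CPM with vehicle, with 8 of 12 lower and 0 called. No marker of these lists was at 0 in any mouse. The part of these shifts in the values of Cox6c and the other complex IV genes was not tested.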

How the data were processed

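RNA of NeuN-sorted hippocampal nuclei from 9 mice was sequenced by the authors as single-end 50-base reads from SMART-Seq v4 and Nextera XT libraries. The authors aligned them to mm10 with STAR and deposited whole counts of reads on the exons of each gene by featureCounts, without normalization. Software versions, strand setting and the handling of reads with several alignments are not given in the sources used here. Library totals of 9342945 to 16376922 counts set the precision.

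Genes were named from GENCODE M21 (48349 of 48709 identifiers matched). Counts were fitted with edgeR 4.0.16 in R 4.3.3 (filterByExpr at 10 counts and a total of 15, TMM scaling, robust quasi-likelihood test, all 9 libraries, contrasts between the 3 groups), and p-values were adjusted by Benjamini-Hochberg over 17361 genes with a threshold of 0.05. Standard errors were the log2 fold change over the root of the F statistic, and 95% intervals used the normal distribution. Permutation tests were exact and two-sided on log2 of CPM with a pseudocount of 0.5. The scripts were tested on simulated data. Window sharing was counted on the longest transcript of each gene over both strands.

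The alternatives were DESeq2 1.42.0, limma 3.58.1 voom with quality weights, RLE factors, no filter, a mean of at least 50 counts, totals without the mitochondrial genome, only the groups compared, a replicate block, the sequencing lane, leaving out each mouse, and, added after seeing the data, corrections for GC content and transcript length and the recount of each complex without each mouse. Named genes were all mitochondrial genes, genes past the threshold, the 5 with the smallest unadjusted p in each comparison, the 2 highest per complex per length, all Sdh genes, isoform pairs and 8 regulators or carriers. Ndufa6, Atp5l, Atp5g1, Atp5g2, Ndufb4, Cox20, Cox16, Ndufaf2 and Cox11, and genes named only for a motif or for groups without overlap, were added outside it with their values already known. The members and lists were chosen with earlier results of these data known. Tissue isoforms and roles were assigned from gene symbols, and Ndufa4 was counted with complex I by its symbol.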

Additional observations from a re-analysis of the deposited data

How the results depend on the processing

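Between Tg4-42 caffeine and vehicle, 2 nuclear-encoded genes were called with no filter on low counts, where Cox6a1 joined Cox6c at a log2 fold change of 0.52, and 0 with the sequencing lane in the model, where Cox6c kept 0.53. Leaving out 1 mouse of the groups compared gave 0 to 1 called genes and a log2 fold change of Cox6c of 0.482 to 0.584. Between Tg4-42 caffeine and WT, DESeq2 called 1 gene, Cox6c, at 0.39. The median of the mitochondrial genes between Tg4-42 vehicle and WT ranged from -0.333 to 0.472 over the left-out mice. The median of the nuclear-encoded genes moved by less than the SD between mice, 0.143, under every alternative, although without WT replicate 2 it was -0.01 against WT for Tg4-42 vehicle and 0.04 for Tg4-42 caffeine. The causes were not tested.

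With the replicate block, 1, 0 and 0 nuclear-encoded genes were called between caffeine and vehicle, Tg4-42 vehicle and WT, and caffeine and WT, as without it, and 187, 16 and 82 genes over the whole table beside 153, 17 and 72. Residuals of mice with the same number correlated at 0.188, 0.138 and 0.156 between Tg4-42 vehicle and WT, all over 0.1, but at 0.152, 0.181 and -0.171 and at -0.17, 0.008 and -0.106 in the other comparisons, and the numbers are those of deposition order, with number 3 in its own lane. Over the whole table the call count between caffeine and vehicle ranged from 0 to 341 when 1 mouse was left out, and was 9 with the lane in the model, 245 with the GC correction, 747 with DESeq2, 587 with limma-voom and 987 with no filter. Between caffeine and WT it was 16 to 287 without 1 mouse, 42 with the lane, 142 with the GC correction, 553 with DESeq2, 125 with limma-voom and 860 with no filter, and between Tg4-42 vehicle and WT it was 74 with no filter. Depth limited Cox7a1 most, with 3 to 15 counts per library, then Cox20 with 10 to 17.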
